A study of Homo sapiens with 54 samples.

Results

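SPRY1, SPRY2 and SPRY4, members of the Sprouty family, and SPRED1 and SPRED2, members of the related SPRED family, were followed across 6 established human cancer cell lines and 3 kinase inhibitors. The 5 genes were taken by symbol from the deposited count tables and are 5 of 33119 genes listed. RNA had been sequenced from the 3′ ends of transcripts (Lexogen QuantSeq). In set 1 the colorectal lines SW48 and SW620 were grown with the MEK1 and MEK2 inhibitor trametinib or left as controls. In set 2 the same colorectal lines were grown with trametinib, with palbociclib, which blocks CDK4 and CDK6 and so entry into the cell cycle, or as controls, while the breast lines BT-474 and BT-20 and the stomach lines NCI-N87 and MKN-45 were grown with afatinib, an irreversible inhibitor of the ERBB receptors, or as controls. Each of the 18 groups holds 3 libraries, 54 in all. All lines were kept in the same serum-containing medium, each group is 1 cell line, and the sources used here give no genotype, dose or exposure time. Whether the 3 libraries of a group stem from separate cultures is not stated either, and the tests then gauge a spread between libraries that may be technical. In bulk RNA, fewer cells expressing a gene and less RNA of it per cell cannot be told apart.

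Sprouty proteins are intracellular brakes on receptor tyrosine kinases. After a growth factor binds its receptor they gather at the plasma membrane, become phosphorylated and bind adaptors and enzymes such as GRB2 and CBL, which lowers signalling through RAS, RAF, MEK and ERK. SPRED proteins carry an EVH1 domain at the amino end and a Sprouty-related domain at the carboxyl end, and bring neurofibromin, the product of NF1, to the membrane, where it turns RAS off. Several of these genes are themselves transcribed in response to ERK, which closes a negative feedback loop. In the RefSeq annotation of GRCh38.p14, SPRY1 lies on chromosome 4 (123396795 to 123403760), SPRY2 on chromosome 13 (80335976 to 80341126), SPRY4 on chromosome 5 (142310430 to 142325021), SPRED1 on chromosome 15 (38252836 to 38357249) and SPRED2 on chromosome 2 (65307175 to 65432599). QuantSeq reads fall at the 3′ end, and no other GENCODE gene covers that end as GENCODE places it for any of the 5. For SPRED2, on the minus strand, GENCODE places it at 65310851, and the RefSeq end at 65307175 was not checked. SPRY4-AS1, antisense to SPRY4, meets only the 5′ end of that gene and has no row in the tables.

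Depth was 4063382 to 10622670 counts per library in set 1 and 3401565 to 12806042 in set 2, with the lowest totals in NCI-N87 with afatinib (3401565 to 5675326) and SW48 with trametinib in set 1 (4063382 to 5211206). All 5 genes had enough counts for testing in all 10 drug comparisons, and their counts per library ran from 1 (SPRY2 in BT-474 with afatinib) to 737 (SPRY2 in an SW620 control). The library labelled SW620 control 3 of set 1 stood apart: its log2 levels correlated at 0.893 and 0.897 with those of the other two controls, which correlated at 0.964 with each other. In SW620 of set 1, PGR, the progesterone receptor and a breast luminal marker, had 8, 1 and 0 counts with trametinib and 1041, 2 and 1787 counts in controls, and SW48 control 2 of set 1 had 362 beside 1 and 0 in its mates. The summed level of 5 breast luminal markers in SW620 of set 1 was 221 to 276 CPM (counts relative to library size) with trametinib and 307 to 433 CPM in controls, and that of 5 stomach markers was 19.3 to 59.0 CPM with trametinib and 77.1 to 203 CPM in controls. Intestinal markers there summed to 40.4 to 48.1 CPM with trametinib and 49.9 to 77.7 CPM in controls. Epithelial markers summed to at least 3260 CPM in the controls of all lines. The intestinal factor CDX2 was present in SW48 (95.7 ± 6.81 CPM, SD, n = 3, set 2 controls) and SW620 (33.7 ± 1.54 CPM, set 2, but 2.79 ± 0.822 CPM in set 1). The 5 intestinal markers summed to 98.3 to 112 CPM in SW48 controls of set 2, with 2 to 3 of them at 0, and to 90.9 to 95.4 CPM in SW620. They summed to more in stomach line controls, 267 to 323 CPM in NCI-N87 and 156 to 166 CPM in MKN-45. Breast luminal markers summed to 1150 to 1250 CPM in BT-474 and 107 to 112 CPM in BT-20, but also to 91.9 to 112 CPM in SW620 controls of set 2. Breast basal markers summed to 503 to 530 CPM in BT-20 controls and 12.7 to 16.5 CPM in BT-474 controls. The stomach markers were near absent in NCI-N87 (0.751 to 4.08 CPM in controls, with GKN1 at 0 in all 3). They summed to 123 to 140 CPM in MKN-45 controls, less than the 335 to 356 CPM in controls of the breast line BT-474. In SW48 the receptor gene ERBB2 stood at 991 ± 48.4 CPM in set 1 controls and 99.6 ± 6.38 CPM in set 2 controls, so the sets are kept apart here. With these PGR, CDX2 and ERBB2 levels the identity of the set 1 libraries is in doubt, and SW48 and SW620 of set 1 mean the libraries so labelled throughout.

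Untreated lines carried the 5 genes at different levels. CPM values below are scaled by TMM over all libraries of a set, so they compare a gene between samples. They do not rank 1 gene against another. SPRY1, which restrains RET signalling in kidney development, had 31.0, 34.2 and 34.3 CPM in MKN-45 controls and 1.52, 1.59 and 2.54 CPM in BT-20 controls, with no overlap. The order of SPRY1 ran from MKN-45 (33.2 ± 1.84 CPM, SD, n = 3) through SW620 (22.4 ± 8.20), NCI-N87 (18.8 ± 8.56), SW48 (10.7 ± 1.83) and BT-474 (6.09 ± 0.812) to BT-20 (1.88 ± 0.570). The steps from MKN-45 to SW620 and from SW620 to NCI-N87 did not pass the test (adjusted p = 0.071 and 0.50), whereas each later step did (adjusted p = 0.014, 0.037 and 0.0017, edgeR quasi-likelihood test, Benjamini-Hochberg over all genes). MKN-45 and NCI-N87, which are not neighbours in the order, differed in the same test (0.79 on the log2 scale, adjusted p = 0.018). Single libraries decided some of these steps. The step between MKN-45 and SW620 passed without SW620 control 3 (0.89 on the log2 scale, adjusted p = 0.011) or NCI-N87 control 1 (0.57, adjusted p = 0.018). The step between NCI-N87 and SW48 missed the threshold without SW48 control 1, NCI-N87 control 2 or NCI-N87 control 3 (adjusted p = 0.05 to 0.11), and that between SW48 and BT-474 without any 1 of 8 libraries of SW48, BT-20 and BT-474 controls (adjusted p = 0.051 to 0.13) and with DESeq2 (adjusted p = 0.063).

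SPRY2, the family member known for binding CBL and thereby sparing EGFR from breakdown, was highest in SW620 controls at 46.8, 45.4 and 64.2 CPM. Its order was SW620 (52.1 ± 10.5 CPM), MKN-45 (32.6 ± 5.37), SW48 (21.2 ± 1.78), NCI-N87 (12.7 ± 2.55), BT-20 (9.54 ± 0.861) and BT-474 (4.60 ± 1.76). Only the step between NCI-N87 and BT-20 missed the threshold (adjusted p = 0.095), and it passed without NCI-N87 control 1 (adjusted p = 0.037). SPRY4, another Sprouty inhibitor of the cascade, varied less. Its levels ran from 14.1 ± 2.80 CPM in MKN-45 through SW48 (13.2 ± 0.565), SW620 (11.9 ± 1.44), NCI-N87 (10.7 ± 1.74) and BT-20 (7.61 ± 2.24) to 5.66 ± 0.817 CPM in BT-474, and no pair of neighbours differed beyond its spread (adjusted p = 0.052 to 0.65). The step between NCI-N87 and BT-20, the closest to the threshold, passed without NCI-N87 control 3, BT-20 control 1 or MKN-45 control 3 (adjusted p = 0.0095 to 0.046), and that between BT-20 and BT-474 without BT-20 control 3 (adjusted p = 0.042).

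SPRED1, whose germline loss causes Legius syndrome, was highest in SW48 (55.1, 59.4 and 51.6 CPM) and lowest in BT-474 (20.3, 14.9 and 18 CPM). In between stood SW620 (45.4 ± 3.0 CPM), NCI-N87 (37.6 ± 4.37), MKN-45 (33.6 ± 1.11) and BT-20 (26 ± 1.18). SW48 passed against SW620 (adjusted p = 0.029), MKN-45 against BT-20 (adjusted p = 0.0087) and BT-20 against BT-474 (adjusted p = 0.00072), while the steps from SW620 to NCI-N87 and from NCI-N87 to MKN-45 did not pass (adjusted p = 0.055 and 0.23). Leaving out SW48 control 1 or 2, or SW620 control 1 or 2, took the SW48 step out of the calls (adjusted p = 0.072 to 0.14), as did testing with no filter on low counts (adjusted p = 0.078). The step from SW620 to NCI-N87 passed without SW620 control 1, NCI-N87 control 2, BT-474 control 1 or 2, or MKN-45 control 2 (adjusted p = 0.021 to 0.05). SPRED2 had the closest means of the 5 as a ratio of highest to lowest. They ran from 28.3 ± 1.91 CPM in SW48 through NCI-N87 (22.9 ± 2.60), SW620 (20.0 ± 2.24), BT-474 (18.8 ± 2.70) and BT-20 (16.6 ± 0.440) to 15.9 ± 5.94 CPM in MKN-45, where 1 control had 9.01 CPM beside 19.0 and 19.6 CPM, and no pair of neighbours passed the test (adjusted p = 0.18 to 0.89). Without that MKN-45 control the step between SW48 and NCI-N87 passed (0.30, adjusted p = 0.048).

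Over the 15 pairs of untreated lines, SPRY2 passed the test in 14, SPRY1 and SPRED1 in 13 each, SPRY4 in 7 and SPRED2 in 6. Most genes differ between lines, and the counts read against that background. The share of all tested genes called was 59.8% for SW620 minus SW48, 64.4% for NCI-N87 minus SW48, 63.1% for MKN-45 minus SW48, 68.3% for BT-20 minus SW48 and 63.2% for BT-474 minus SW48. It was 67.9%, 62%, 70.7% and 66.1% for NCI-N87, MKN-45, BT-20 and BT-474 minus SW620, and 64.5%, 62.4% and 63% for MKN-45, BT-20 and BT-474 minus NCI-N87. BT-20 and BT-474 minus MKN-45 gave 70.2% and 67%, and BT-474 minus BT-20 gave 63.7%.

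**Figure D1:**
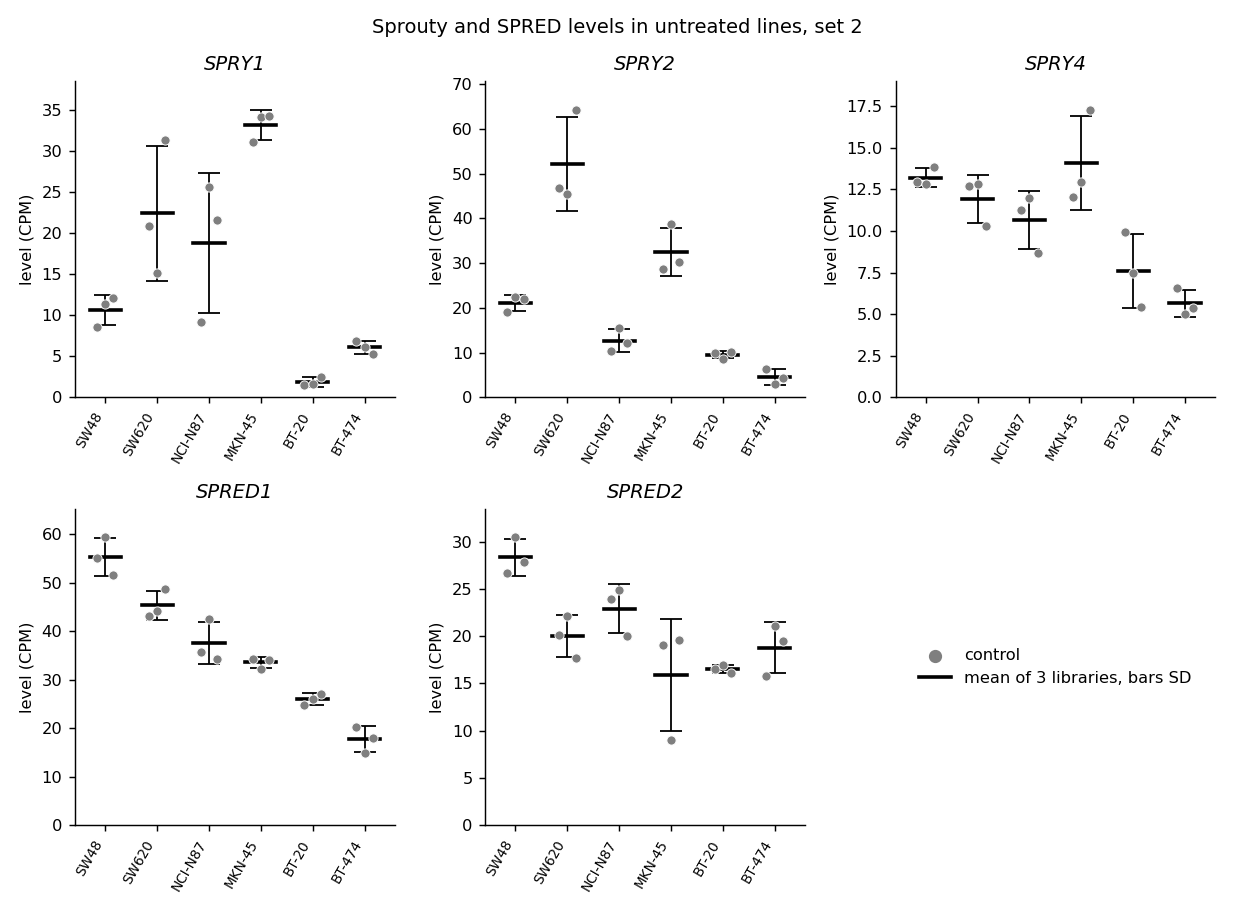
Levels of the 5 genes in untreated cells of set 2 (y axis, CPM scaled by TMM, 1 panel per gene, axes from 0) by cell line (x axis). Points are the 3 libraries of a line, horizontal lines their mean and bars the SD. As a ratio of the highest to the lowest mean, SPRY1 and SPRY2 span the widest range between lines, with BT-20 lowest for SPRY1 (1.88 CPM) and SW620 highest for SPRY2 (52.1 CPM), while the SPRED2 means lie between 15.9 and 28.3 CPM.

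With trametinib in SW48 of set 2, all 5 genes fell, and the libraries of the treated and control groups did not overlap for any of them. The share of all genes whose groups do not overlap was not counted, in this or any other comparison. Statements on overlap therefore only describe the libraries of the named genes. The steepest fall was that of SPRY4, which had 3.56, 2.53 and 5.07 CPM with trametinib against 12.9, 12.8 and 13.9 CPM in controls. The highest treated library stood well below the lowest control, and the log2 fold change was -1.84 (SE 0.20, adjusted p = 5.8e-06, edgeR), a level of 0.280 of the control. SPRY2 had 9.37, 11.2 and 9.11 CPM with trametinib against 19.1, 22.5 and 21.9 CPM in controls (log2 fold change -1.12, SE 0.13, adjusted p = 8e-06). SPRY1 had 6.62, 5.06 and 6.94 CPM with trametinib against 8.62, 11.3 and 12.1 CPM in controls, a smaller gap (log2 fold change -0.80, SE 0.18, adjusted p = 0.0021). The SPRED genes fell to 0.626 (SPRED1) and 0.541 (SPRED2) of their control level. SPRED1 had 32.8, 32.8 and 39.7 CPM with trametinib against 55.1, 59.4 and 51.6 CPM in controls (log2 fold change -0.68, SE 0.09, adjusted p = 3e-05), and SPRED2 had 17.4, 14.1 and 15 CPM with trametinib against 26.7, 30.4 and 27.8 CPM (log2 fold change -0.89, SE 0.11, adjusted p = 1.6e-05). Changes were frequent in this comparison: 30.1% of 12688 genes tested were called lower and 30.1% higher, with a median log2 fold change of 0.00782 over all genes and -0.887 over the 5. Summed cell type markers moved in the same libraries without overlap. The 5 epithelial markers stood at 1690 to 1770 CPM with trametinib and 3890 to 4030 CPM in controls (3 lower, 1 higher), the intestinal ones at 251 to 277 CPM with trametinib and 98.3 to 112 CPM in controls (1 of 2 tested higher) and the mesenchymal ones at 22.3 to 25.6 CPM with trametinib and 10.8 to 16.7 CPM in controls (1 of 4 tested higher). Breast basal markers summed to 206 to 228 CPM with trametinib and 233 to 259 CPM in controls (2 of 4 tested lower, 1 higher), the endothelial markers PECAM1 and CDH5 were at 0 in all 6 libraries, and the part of these shifts in the falls was not tested.

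The promoters of 3 of these genes are shown because they belong to the steepest falls in SW48 with trametinib (SPRY4 and SPRY2) and to the gene that was lower in SW48 with both drugs (SPRED2, below). Each is the RefSeq window of GRCh38.p14 from 250 bases before to 50 bases after a transcription start, written 5′ to 3′ on the strand of the gene, all minus: chr5:142324198-142324497 for SPRY4, chr13:80341077-80341376 for SPRY2 and chr2:65432550-65432849 for SPRED2. Capitals mark matches on either strand to the ETS core CCGGAA, the AP-1 site TGANTCA or the CRE half-site TGACG, which do not overlap one another in these windows.
SPRY4: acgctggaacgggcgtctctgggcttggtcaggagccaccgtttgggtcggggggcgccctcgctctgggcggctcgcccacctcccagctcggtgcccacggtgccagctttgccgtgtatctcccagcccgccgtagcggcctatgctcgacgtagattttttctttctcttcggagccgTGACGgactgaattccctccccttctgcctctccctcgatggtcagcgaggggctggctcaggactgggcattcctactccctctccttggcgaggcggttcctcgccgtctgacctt
SPRY2: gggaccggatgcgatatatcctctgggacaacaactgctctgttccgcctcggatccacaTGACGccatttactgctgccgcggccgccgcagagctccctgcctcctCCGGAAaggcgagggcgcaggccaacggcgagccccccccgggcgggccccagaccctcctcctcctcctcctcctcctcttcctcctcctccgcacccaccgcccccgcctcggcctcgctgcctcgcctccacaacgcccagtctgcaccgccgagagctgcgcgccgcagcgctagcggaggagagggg
SPRED2: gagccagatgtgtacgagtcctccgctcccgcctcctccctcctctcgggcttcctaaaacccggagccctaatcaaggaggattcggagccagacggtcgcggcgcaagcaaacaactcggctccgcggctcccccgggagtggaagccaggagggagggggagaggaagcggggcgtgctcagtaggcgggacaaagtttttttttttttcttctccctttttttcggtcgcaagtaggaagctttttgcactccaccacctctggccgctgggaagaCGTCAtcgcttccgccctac

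The SPRY4 window holds a CRE half-site that begins 68 bases before the start. The SPRY2 window holds an ETS core 142 bases and a CRE half-site 190 bases before the start, and the SPRED2 window a CRE half-site read on the opposite strand within the first 50 transcribed bases. Of the further RefSeq starts, the second of SPRY1 (chr4:123398136-123398435) has an ETS core, the second of SPRED2 (chr2:65366729-65367028) has 2 AP-1 sites, and no match was found for the start of SPRED1, the first start of SPRY1 or the other two of SPRY2. Among 35116 promoter windows of the same 300 bases, 17.2% hold the ETS core, 7.71% the AP-1 site and 24.6% the CRE half-site, so such matches are common. They describe the sequence and are no evidence of binding.

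In SW620 of set 2 none of the 5 genes passed the test with trametinib. SPRY4 had 12.4, 12.1 and 13.1 CPM with trametinib against 12.7, 12.9 and 10.3 CPM in controls, and SPRY2 had 48.7, 57.5 and 47.9 CPM with trametinib against 46.8, 45.4 and 64.2 CPM in controls. The groups overlapped for all 5 genes. The log2 fold changes lay between -0.09 (SPRED2) and 0.07 (SPRY4), with adjusted p of 0.73 to 0.95, and the 95% intervals (normal, from the SE) were narrowest for SPRED1 (-0.22 to 0.17) and widest for SPRY1 (-0.52 to 0.43). With 3 libraries a group, such normal intervals, here and below, are narrower than the test itself allows. edgeR called 0% of 12919 genes higher and 0% lower in this comparison. There 2204 genes had an unadjusted p under 0.05, and DESeq2 called 177. No member was among those 2204. The third SW620 library with trametinib had less DUSP6 (166 CPM) than the first and second (333 and 289 CPM), and controls had 332, 332 and 296 CPM.

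The effect of trametinib itself differed between the lines in set 2 for 4 of the 5 genes. Effects were set as SW620 minus SW48. The difference was 1.93 for SPRY4 (SE 0.26, adjusted p = 0.00011), 1.11 for SPRY2 (SE 0.20, adjusted p = 0.0012), 0.82 for SPRED2 (SE 0.16, adjusted p = 0.002) and 0.67 for SPRED1 (SE 0.14, adjusted p = 0.0023) on the log2 scale. For SPRY1 it was 0.78 (SE 0.34, adjusted p = 0.11), and it passed without SW620 control 3 (1.11, adjusted p = 0.011), the control with 31.3 CPM of SPRY1 beside 20.8 and 15.1 CPM. Over all genes 28.2% were called in this test.

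**Figure D2:**
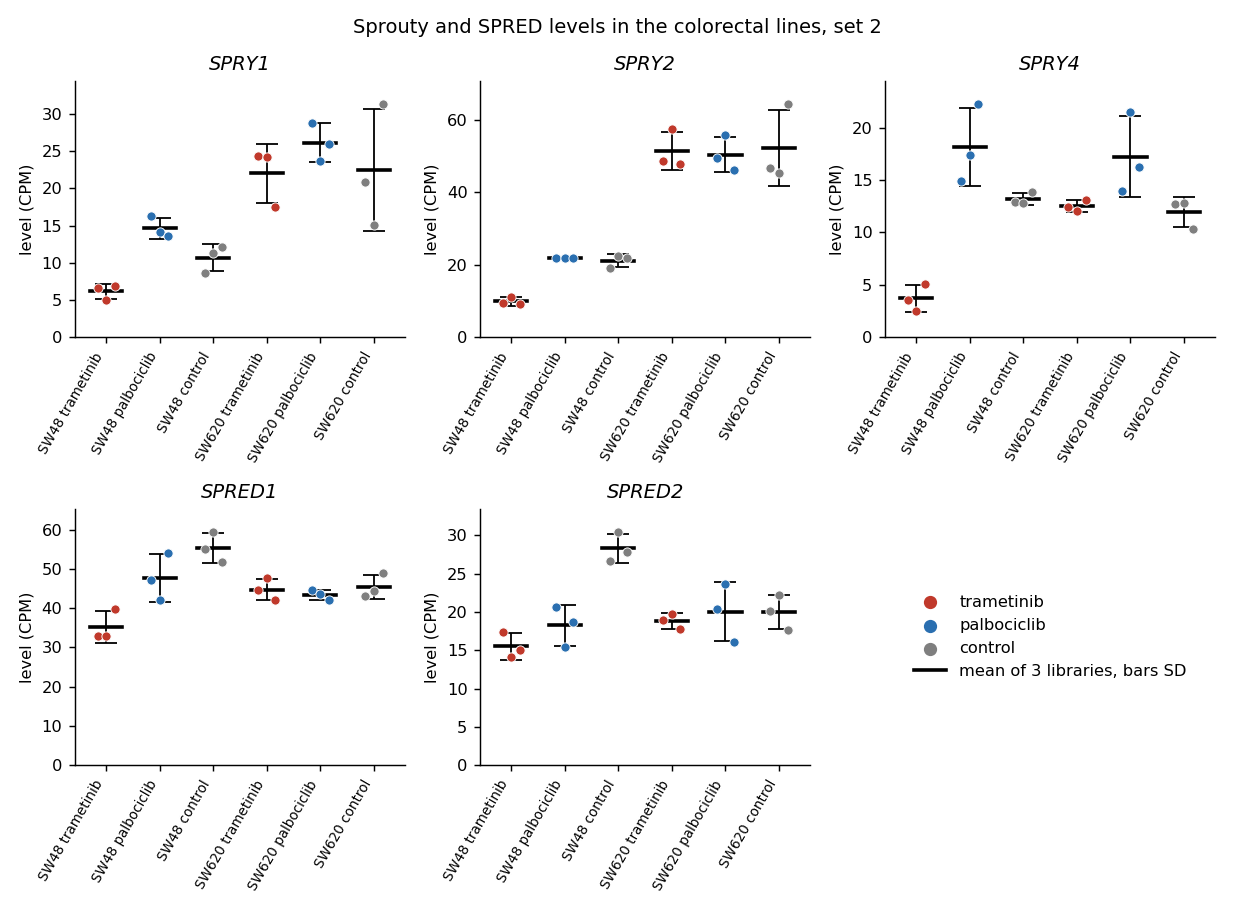
Levels of the 5 genes in SW48 and SW620 of set 2 (y axis, CPM scaled by TMM, axes from 0) with trametinib, with palbociclib and in controls (x axis). Points are 3 libraries a group, horizontal lines the mean and bars the SD. In SW48 every trametinib library lies below every control for all 5 genes, and SPRY4 with trametinib stays at 2.53 to 5.07 CPM. The SW620 trametinib and control groups overlap.

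Set 1 also held trametinib in the colorectal lines, and fewer members passed there. In SW48 SPRED1 had 23.3, 17.1 and 29.8 CPM with trametinib against 31.4, 52.0 and 47.0 CPM in controls (log2 fold change -0.88, SE 0.25, adjusted p = 0.027). SPRED2 had 21.3, 22.8 and 18.4 CPM with trametinib against 27.3, 27.8 and 35.7 CPM in controls (log2 fold change -0.53, SE 0.17, adjusted p = 0.045). Both fell, with no overlap between the groups, in a comparison where 19.4% of 12235 genes were called lower and 16% higher. In these groups the 5 epithelial markers summed to 2730 to 2830 CPM with trametinib and 5250 to 5780 CPM in controls (all 5 lower), the intestinal ones to 389 to 452 CPM with trametinib and 101 to 126 CPM in controls (1 of 2 tested higher, CDX1 at 0 throughout) and the mesenchymal ones to 73.9 to 95.0 CPM with trametinib and 7.49 to 20.1 CPM in controls (3 of 3 tested higher). Breast basal markers summed to 300 to 378 CPM with trametinib and 399 to 441 CPM in controls (1 of 2 tested lower), and blood markers to 0.462 to 2.02 CPM with trametinib and 2.71 to 5.73 CPM in controls. Reads listed as not aligned made up 42.4% to 47.5% with trametinib and 22.4% to 38.0% in controls, and the part of these differences in the falls was not tested. Neither call was firm. SPRED1 missed the threshold without SW48 control 2 or 3 or trametinib 1 or 2 (adjusted p = 0.073 to 0.089), and SPRED2 without any 1 of the 6 libraries (adjusted p = 0.054 to 0.14). SPRY2 had 6.97, 6.92 and 7.62 CPM with trametinib, all below the controls at 8.68, 10.7 and 8.67 CPM, and missed the threshold (log2 fold change -0.37, SE 0.25, adjusted p = 0.29). SPRY1 had 4.04, 6.69 and 5.39 CPM with trametinib against 6.60, 7.97 and 8.93 CPM in controls (log2 fold change -0.54, SE 0.31, adjusted p = 0.22). SPRY4 was scattered in set 1, with 8.26, 8.54 and 16.5 CPM with trametinib against 9.03, 2.99 and 26.3 CPM in controls (log2 fold change -0.19, adjusted p = 0.85), and its 95% interval of -1.51 to 1.13 is too wide to tell a fall from a rise.

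In SW620 of set 1 no member passed with trametinib, and edgeR called 0% of 13081 genes higher and 0% lower, with 366 at an unadjusted p under 0.05 and 16 called by DESeq2. The third control, the library that stood apart, had low SPRED1 (10.2 CPM beside 34.8 and 39.0 CPM), SPRED2 (4.92 beside 17.4 and 20.4 CPM) and SPRY1 (9.94 beside 19.2 and 23.5 CPM), and high SPRY2 (46.2 beside 25.3 and 28.1 CPM). With trametinib SPRED1 had 27.4, 54.1 and 56.0 CPM, SPRED2 16.9, 12.8 and 16.5 CPM, SPRY1 24.4, 24.4 and 22.0 CPM and SPRY2 30.0, 40.8 and 36.2 CPM. SPRY4 had 4.21, 20.3 and 5.43 CPM with trametinib against 13.7, 8.15 and 8.08 CPM in controls. The log2 fold changes were 0.71 for SPRED1, 0.43 for SPRY1 and 0.01 to 0.11 for the others (adjusted p = 0.92 to 1). Without control 3 they were 0.32 for SPRED1, 0.15 for SPRY1, 0.43 for SPRY2, -0.12 for SPRY4 and -0.29 for SPRED2 (adjusted p = 0.60 to 0.98). The summed breast luminal, stomach and intestinal markers were higher in these controls, with none of the 3 tested genes of each list called. Their part in these values was not tested. The difference of the trametinib effect between the lines in set 1 passed for no member (0.20 to 1.60 on the log2 scale for SW620 minus SW48, adjusted p = 0.16 to 0.95), where 6.73% of all genes were called.

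**Figure D3:**
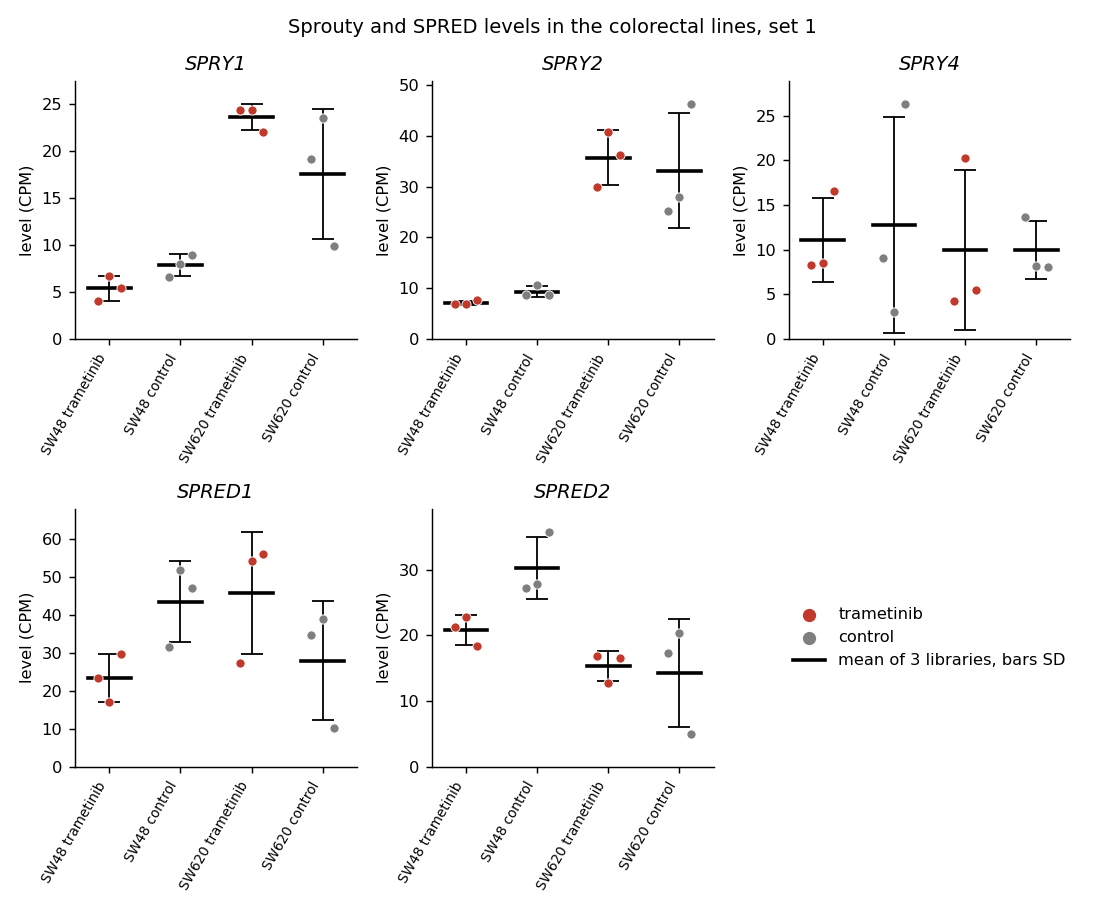
Levels of the 5 genes in SW48 and SW620 of set 1 (y axis, CPM scaled by TMM, axes from 0) with trametinib and in controls (x axis). Points are 3 libraries a group, horizontal lines the mean and bars the SD. In SW48 the trametinib libraries lie below all controls for SPRY2, SPRED1 and SPRED2, and 1 SW620 control lies far below the other two for SPRED1 (10.2 CPM) and SPRED2 (4.92 CPM).

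With palbociclib in SW48, SPRY1 and SPRY4 were called higher and SPRED2 lower, while SPRY2 and SPRED1 did not pass. SPRY1 had 16.3, 14.1 and 13.7 CPM with palbociclib against 8.62, 11.3 and 12.1 CPM in controls (log2 fold change 0.45, SE 0.16, adjusted p = 0.024). SPRY4 had 14.9, 17.4 and 22.2 CPM with palbociclib against 12.9, 12.8 and 13.9 CPM in controls (log2 fold change 0.45, SE 0.15, adjusted p = 0.02). SPRED2 had 20.7, 15.4 and 18.6 CPM with palbociclib against 26.7, 30.4 and 27.8 CPM in controls (log2 fold change -0.65, SE 0.12, adjusted p = 0.00031). These 3 pairs of groups did not overlap. SPRY2 was level, with 21.8 to 21.9 CPM in the 3 palbociclib libraries against 19.1 to 22.5 CPM in controls (95% interval of the log2 fold change -0.17 to 0.24). SPRED1 had 47.1, 41.9 and 54.0 CPM with palbociclib against 55.1, 59.4 and 51.6 CPM in controls and just missed (log2 fold change -0.23, SE 0.09, adjusted p = 0.051). It passed in 3 of 11 alternative runs, among them those without control 3 (-0.28, adjusted p = 0.044) or palbociclib 3 (-0.33, adjusted p = 0.0099). In this comparison 28.3% of 12690 genes were called higher and 29.2% lower. With 5 genes, 2 higher and 1 lower cannot be set apart from these shares. Epithelial markers summed to 4530 to 5040 CPM with palbociclib and 3890 to 4030 CPM in controls (3 of 5 higher), intestinal ones to 166 to 188 CPM with palbociclib and 98.3 to 112 CPM in controls (3 of 3 tested higher) and breast basal ones to 184 to 215 CPM with palbociclib and 233 to 259 CPM in controls (2 of 4 tested lower). Their part in the changes was not tested. The 2 rises were the less firm calls. SPRY1 lost its call without control 1 (0.31, adjusted p = 0.12) or palbociclib 1 (0.36, adjusted p = 0.09), and SPRY4 without control 1 (0.42, adjusted p = 0.057), control 2 (0.42, adjusted p = 0.051) or palbociclib 3 (0.28, adjusted p = 0.13). DESeq2 called neither (adjusted p = 0.11 for SPRY1 and 0.08 for SPRY4).

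In SW620 SPRY4 was the only member of the 5 to pass with palbociclib. It had 13.9, 21.5 and 16.2 CPM with palbociclib, all above the controls at 12.7, 12.9 and 10.3 CPM (log2 fold change 0.56, SE 0.18, adjusted p = 0.034). This rise missed the threshold without control 1 (0.60, adjusted p = 0.075), control 2 (0.60, adjusted p = 0.056), control 3 (0.45, adjusted p = 0.086), palbociclib 2 (0.35, adjusted p = 0.15) or palbociclib 3 (0.60, adjusted p = 0.062), and with DESeq2 (adjusted p = 0.071). SPRY1 had 28.8, 23.7 and 26 CPM with palbociclib against 20.8, 15.1 and 31.3 CPM in controls (log2 fold change 0.23, adjusted p = 0.43), and passed without control 3 (0.55, adjusted p = 0.016). SPRY2, SPRED1 and SPRED2 had log2 fold changes of -0.05 to 0.03 (adjusted p = 0.74 to 0.90), with groups that overlapped. Here 17.6% of 13068 genes were called higher and 17.4% lower. Markers moved in these SW620 libraries without overlap: epithelial ones summed to 8130 to 8710 CPM with palbociclib and 4700 to 5460 CPM in controls (4 of 5 higher), breast luminal ones to 263 to 354 CPM with palbociclib and 91.9 to 112 CPM in controls (1 of 2 tested higher) and stomach ones to 31.0 to 43.5 CPM with palbociclib and 9.76 to 18.4 CPM in controls (2 of 3 tested higher, GKN1 at 0 throughout). Mesenchymal markers summed to 328 to 528 CPM with palbociclib and 255 to 265 CPM in controls (1 of 4 tested higher), intestinal ones to 109 to 118 CPM with palbociclib and 90.9 to 95.4 CPM in controls (2 of 3 tested higher, 1 lower, CDX1 at 0 throughout), and their part in the rise of SPRY4 was not tested. The palbociclib effect differed between the lines for SPRED2 (0.69 for SW620 minus SW48, SE 0.21, adjusted p = 0.024), the gene that fell in SW48, in a test that called 25.7% of all genes. That difference missed the threshold without SW48 control 2 or 3, SW48 palbociclib 2, SW620 control 3 or SW620 palbociclib 2 (0.53 to 0.66, adjusted p = 0.05 to 0.076). For the other members it lay between -0.20 (SPRY1) and 0.19 (SPRED1), with adjusted p of 0.33 to 0.88.

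The drugs were also compared with each other, since both share the controls of a line. In SW48, SPRY1, SPRY2, SPRY4 and SPRED1 were lower with trametinib than with palbociclib, with no overlap. SPRY4 had 3.56, 2.53 and 5.07 CPM with trametinib against 14.9, 17.4 and 22.2 CPM with palbociclib (log2 difference -2.28, SE 0.23, adjusted p = 3.6e-06). The differences were -1.25 for SPRY1 (SE 0.17, adjusted p = 4.9e-05), -1.15 for SPRY2 (SE 0.13, adjusted p = 8.6e-06) and -0.45 for SPRED1 (SE 0.11, adjusted p = 0.0044). SPRED2 had 17.4, 14.1 and 15 CPM with trametinib against 20.7, 15.4 and 18.6 CPM with palbociclib, which overlapped (log2 difference -0.24, 95% interval -0.51 to 0.03, adjusted p = 0.18). Over all genes 41.9% were called. In SW620 no member passed, with 32.7% of genes called. SPRY4 came closest, with 12.4, 12.1 and 13.1 CPM with trametinib, all below 13.9, 21.5 and 16.2 CPM with palbociclib (log2 difference -0.47, SE 0.17, adjusted p = 0.063), and it passed without palbociclib 1 (-0.60, adjusted p = 0.033).

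Among the lines given afatinib, BT-474 alone had members past the threshold. SPRY4, SPRED1 and SPRED2 fell, with no overlap between the groups. SPRY4 had 2.58, 2.60 and 1.81 CPM with afatinib against 6.58, 5.02 and 5.39 CPM in controls (log2 fold change -1.27, SE 0.28, adjusted p = 0.0029). These levels rest on few reads, 11 to 15 counts a library with afatinib and 36 to 45 in controls. SPRED1 had 7.57, 8.31 and 11.5 CPM with afatinib against 20.3, 14.9 and 18 CPM in controls (log2 fold change -0.94, SE 0.18, adjusted p = 0.0012). SPRED2 had 11.5, 11.6 and 10.7 CPM with afatinib against 15.8, 21.0 and 19.5 CPM in controls (log2 fold change -0.73, SE 0.14, adjusted p = 0.0016). SPRY1 had 3.44, 2.77 and 6.25 CPM with afatinib against 6.87, 6.13 and 5.25 CPM in controls (log2 fold change -0.53, SE 0.29, adjusted p = 0.16), and passed without afatinib 3 (-0.96, adjusted p = 0.019). SPRY2 rested on few reads, with 1, 26 and 18 counts with afatinib against 44, 21 and 32 counts in controls (log2 fold change -0.83, SE 0.56, adjusted p = 0.25). The background was 21.8% of 12768 genes called lower and 20.9% higher. In the same libraries breast luminal markers summed to 1850 to 2020 CPM with afatinib and 1150 to 1250 CPM in controls (4 of 5 higher), stomach markers to 540 to 601 CPM with afatinib and 335 to 356 CPM in controls (3 of 3 tested higher, GKN1 at 0 throughout) and mesenchymal ones to 162 to 168 CPM with afatinib and 131 to 143 CPM in controls (2 of 3 tested higher). Intestinal markers summed to 6.41 to 10.3 CPM with afatinib and 2.65 to 3.66 CPM in controls (2 of 3 tested higher, CDX1 at 0 throughout), and the part of these shifts in the falls was not tested.

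In BT-20 few genes of any kind were called with afatinib, 0.273% of 12810 higher and 0.312% lower, and none of the 5 was among them. edgeR called 75 genes, DESeq2 158, and 1602 had an unadjusted p under 0.05. SPRED1 had 18.4, 18.2 and 20.7 CPM with afatinib, all below the controls at 24.8, 26 and 27.2 CPM (log2 fold change -0.44, SE 0.11, adjusted p = 0.096), and it passed with no filter on low counts (adjusted p = 0.027). SPRY4 had 4.18, 3.38 and 7.16 CPM with afatinib against 9.92, 7.46 and 5.46 CPM in controls (log2 fold change -0.60, SE 0.29, adjusted p = 0.43). SPRY1 had 3.29, 3.67 and 2.21 CPM with afatinib against 1.52, 1.59 and 2.54 CPM in controls (log2 fold change 0.69, SE 0.35, adjusted p = 0.45), from 11 to 25 counts a library. SPRY2 had a log2 fold change of -0.29 (adjusted p = 0.55) and SPRED2 of -0.03 (adjusted p = 0.95). The afatinib effect differed between the breast lines for SPRED2 (-0.72 for BT-474 minus BT-20, SE 0.18, adjusted p = 0.0087), in a test that called 23.8% of all genes. The difference for SPRY1 (-1.24, SE 0.47, adjusted p = 0.066) passed without BT-20 control 3, BT-20 afatinib 3 or BT-474 afatinib 3 (-1.63 to -1.43, adjusted p = 0.016 to 0.046). That for SPRED1 (-0.52, SE 0.21, adjusted p = 0.08) passed without BT-474 afatinib 3 (-0.70, adjusted p = 0.023). For SPRY4 it was -0.68 (SE 0.44, adjusted p = 0.29) and for SPRY2 -0.56 (SE 0.58, adjusted p = 0.53).

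The stomach lines had no gene past the threshold in edgeR with afatinib. In NCI-N87 0% of 12472 genes were called higher and 0% lower, with 1523 at an unadjusted p under 0.05 and 38 called by DESeq2. SPRY2 had 19.8, 19.7 and 12.1 CPM with afatinib against 10.3, 15.4 and 12.2 CPM in controls (log2 fold change 0.45, SE 0.24, adjusted p = 0.44). SPRY1 had 13.3, 15.1 and 9.18 CPM with afatinib against 9.22, 25.6 and 21.6 CPM in controls (log2 fold change -0.58, SE 0.34, adjusted p = 0.48), and passed without control 1 (-0.89, adjusted p = 0.02). SPRY4, SPRED1 and SPRED2 had log2 fold changes of -0.12 to -0.01 (adjusted p = 0.79 to 0.99). In MKN-45 0% of 12358 genes were called higher and 0% lower, with 664 at an unadjusted p under 0.05, SPRY2 among them, and 0 called by DESeq2. SPRY2 had 25.0, 24.1 and 24.6 CPM with afatinib, all below the controls at 28.7, 38.7 and 30.3 CPM (log2 fold change -0.39, SE 0.13, adjusted p = 0.82). The other 4 had log2 fold changes of -0.05 to 0.27 (adjusted p = 0.84 to 0.95). The afatinib effect on SPRY2 was 0.86 higher on the log2 scale in NCI-N87 than in MKN-45 (SE 0.28, adjusted p = 0.36), and that on SPRY1 was -0.52 (SE 0.38, adjusted p = 0.59), which passed without NCI-N87 control 1 (-0.82, adjusted p = 0.042). No member passed in this test, in which 0.0145% of all genes were called.

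**Figure D4:**
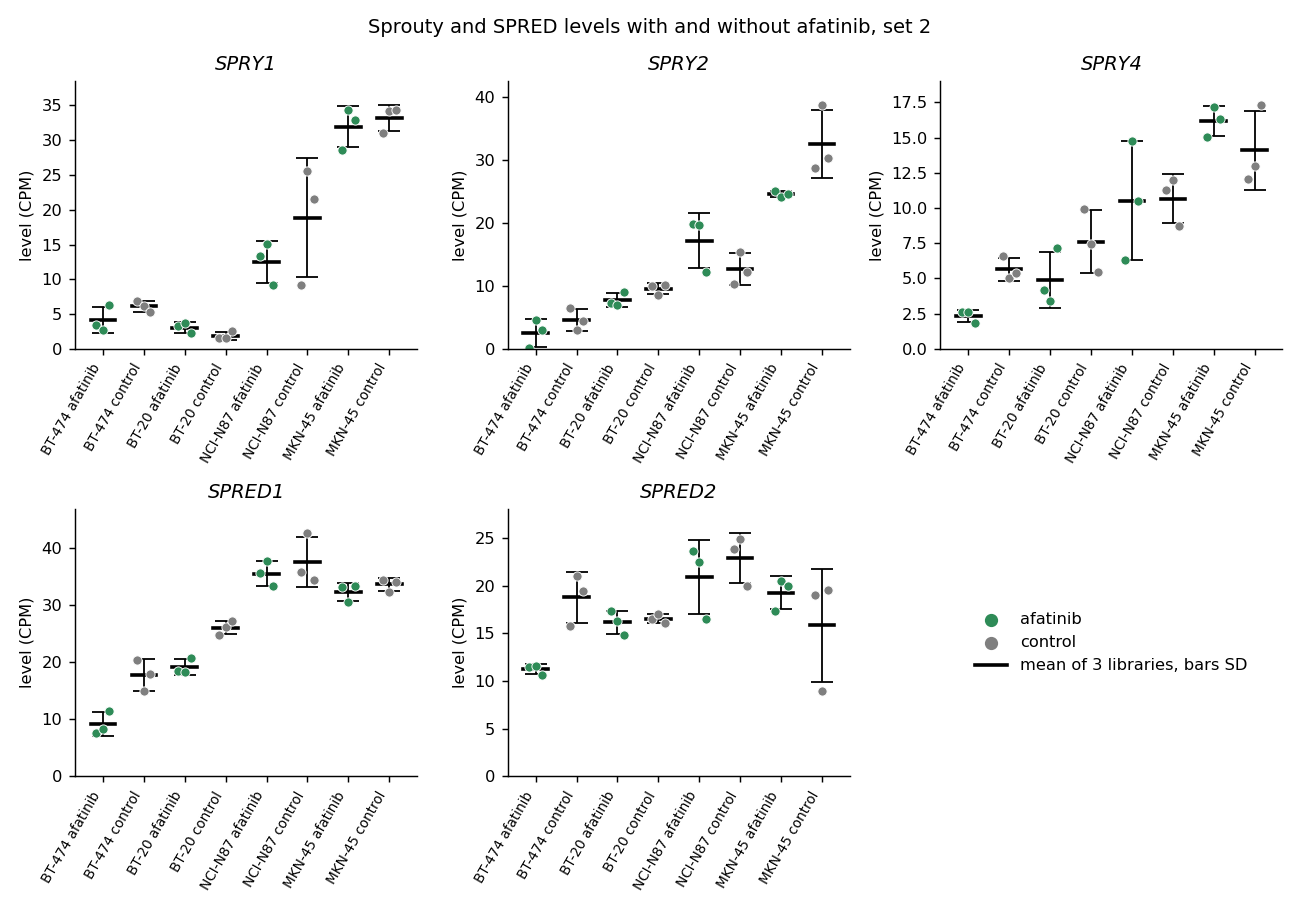
Levels of the 5 genes in the breast lines BT-474 and BT-20 and the stomach lines NCI-N87 and MKN-45 of set 2 (y axis, CPM scaled by TMM, axes from 0) with afatinib and in controls (x axis). Points are 3 libraries a group, horizontal lines the mean and bars the SD. The afatinib libraries of BT-474 lie below all of its controls for SPRY4 (1.81 to 2.60 CPM), SPRED1 and SPRED2. Those of BT-20 do so for SPRED1 and those of MKN-45 for SPRY2, neither of which passed the test.

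**Figure D5:**
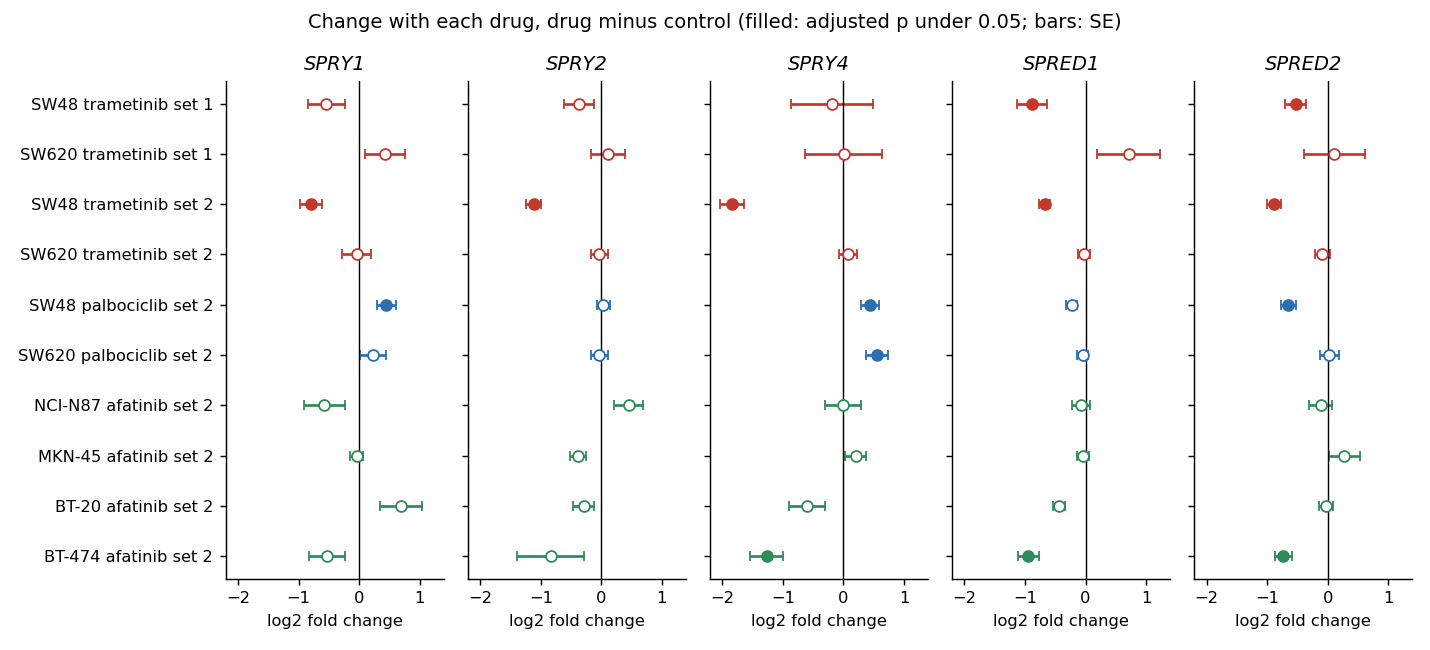
Log2 fold change of each gene (x axis, drug minus control, 1 panel per gene) in the 10 drug comparisons (rows). Points are edgeR estimates, bars the SE, and filled points passed the threshold of 0.05 on the adjusted p. Filled points to the left of 0 occur for SW48 with trametinib, for SW48 with palbociclib (SPRED2) and for BT-474 with afatinib, and those to the right for palbociclib (SPRY1 and SPRY4 in SW48, SPRY4 in SW620).

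Genes around the family in the same pathway were counted from lists drawn up with earlier results of these data known. Of 10 genes that ERK is known to raise, 9 were lower with trametinib in SW48 of set 2, where 30.1% of all genes were, and none higher (median log2 fold change -2.42), with PHLDA1 at -3.88, EMP1 at -3.48 and IER3 at -3.29. In set 1 of SW48 8 of the 10 were lower, against 19.4% of all genes (median -2.18), led by PHLDA1 (-4.16), the AP-1 subunit FOSL1 (-4.11) and the ETS factor ETV5 (-2.98). Of 10 other feedback inhibitors of receptor signalling, 5 were lower in SW48 of set 2 (median -0.50; 30.1% of all genes lower) and 6 in set 1 (median -1.09; 19.4% of all genes lower). ERRFI1, a direct inhibitor of ERBB receptors, was at -4.20 in set 2 and -2.95 in set 1, DUSP6, a phosphatase of ERK, at -2.50 in set 2 and -3.65 in set 1, and the third gene of the list was DUSP4 in set 2 (-2.01) and DUSP5 in set 1 (-2.41). In SW620 none of either list was called with trametinib in either set, but edgeR called 0% of all genes there, so the lists do not stand out. DUSP6 stood at -0.29 in set 2 (adjusted p = 0.49) and -0.49 in set 1 (adjusted p = 0.92). The trametinib effect on DUSP6 differed between the lines by 2.22 in set 2 (adjusted p = 2.4e-05) and 3.17 in set 1 (adjusted p = 0.00051), and that on ETV5 by 2.54 (adjusted p = 2.3e-07) and 2.65 (adjusted p = 0.00021).

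With palbociclib 9 of the 10 genes raised by ERK were lower in SW48, against 29.2% of all genes (median -0.86), led by FOSL1 (-2.00), EGR1 (-1.46) and MYC (-1.33), while ETV5 stood at -1.01. Among the other feedback inhibitors in SW48, DUSP4 was higher (0.44) and 6 of 10 were lower, led by ERRFI1 (-2.94), DUSP6 (-0.76) and SH2B3 (-0.66). SPRY1 and SPRY4 were higher in the same libraries in which DUSP6 and ETV5 were lower. In SW620 with palbociclib, 4 of the 10 ERK-raised genes were higher, against 17.6% of all genes, with SPHK1 at 2.21, EMP1 at 1.79 and CCND1, which encodes cyclin D1, at 1.57, and 1 was lower, MYC at -0.43. Of the other feedback inhibitors DUSP4 (0.62), DUSP5 (0.56) and DUSP6 (0.39) were higher there and LRIG1 (-0.70) and SH2B3 (-0.62) lower, while ETV5 stood at -0.09 (adjusted p = 0.39). The palbociclib effect, SW620 minus SW48, was 1.17 for DUSP6 (adjusted p = 4.5e-07) and 0.93 for ETV5 (adjusted p = 3.5e-06). Between the drugs, DUSP6 was lower with trametinib than with palbociclib in SW48 (-1.73, adjusted p = 3.6e-10) and in SW620 (-0.67, adjusted p = 0.024), and ETV5 in SW48 (-1.52, adjusted p = 1.7e-09) but not past the threshold in SW620 (0.09, adjusted p = 0.62).

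In BT-474 with afatinib DUSP6 had 29.9, 27.9 and 29.1 CPM against 98.6, 91.7 and 89.6 CPM in controls (log2 fold change -1.68, adjusted p = 1.8e-08). DUSP4 was lower too (-1.61), SH2B3 (0.74) and SPSB1 (0.73) were higher, and of 9 ERK-raised genes tested 5 were lower, against 21.8% of all genes, with ETV4 at -1.47 and ETV5 at -0.67, and PHLDA1 was higher (0.52). The 2 lower and 2 higher of 10 feedback inhibitors are near the shares of all genes (21.8% and 20.9%). In BT-20 the only called genes of these lists were EGR1 (-2.27) and ETV5 (-0.52, adjusted p = 0.015), and DUSP6 stood at -0.83 (adjusted p = 0.14). In NCI-N87 DUSP6 was at 0.01 (adjusted p = 0.99) and ETV5 at -0.73 (adjusted p = 0.37), and in MKN-45 at 0.19 and 0.15 (adjusted p = 0.82 each). The afatinib effect on DUSP6 differed between BT-474 and BT-20 (-0.86, adjusted p = 0.015), and that on ETV5 did not pass (-0.16, adjusted p = 0.63). Between NCI-N87 and MKN-45 neither DUSP6 (-0.16, adjusted p = 0.90) nor ETV5 (-0.86, adjusted p = 0.33) passed.

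Genes of the proteins that Sprouty and SPRED work through were counted too. Of 12 such partners, 8 were lower and 1 higher with trametinib in SW48 of set 2 (median -0.29), 7 lower and 1 higher with palbociclib in SW48 (median -0.26), 1 lower and 3 higher with palbociclib in SW620 (median 0.0950), and 5 lower and 4 higher with afatinib in BT-474 (median -0.0194). Over all genes the shares lower and higher were 30.1% and 30.1% with trametinib in SW48, 29.2% and 28.3% with palbociclib in SW48, 17.4% and 17.6% with palbociclib in SW620, and 21.8% and 20.9% with afatinib in BT-474. In SW48 of set 1 1 was lower (SIAH2, -1.56) and 1 higher (MKNK1, 0.77), where 19.4% of all genes were lower and 16% higher. SIAH2, a ubiquitin ligase that degrades SPRY2, was at -1.16 with trametinib and -1.05 with palbociclib in SW48 of set 2 and at -0.57 with palbociclib in SW620. The others that led were CAV1 (-0.81) and PTPN11 (-0.54) with trametinib in SW48, MKNK1 (0.86) and PTPN11 (-0.60) with palbociclib in SW48, MKNK1 (0.42) and CAV1 (0.38) with palbociclib in SW620, and CAV1 (2.29), PTPN11 (-0.85) and MKNK1 (0.59) with afatinib in BT-474. GRB2, the adaptor that links receptors to RAS, was slightly lower with trametinib in SW48 of set 2 (-0.25, adjusted p = 0.0056), with palbociclib in SW48 (-0.23, adjusted p = 0.014) and with afatinib in BT-474 (-0.27, adjusted p = 0.0048), and its other 7 drug comparisons gave -0.22 to 0.17 (adjusted p = 0.28 to 0.99). NF1, the partner of SPRED, passed against controls in none of the 10 comparisons (-0.42 to 0.22, adjusted p = 0.075 to 1), but was lower with trametinib than with palbociclib in SW48 (-0.26, adjusted p = 0.017). CBL passed only with palbociclib in SW620 (0.33, adjusted p = 0.014), and its other 9 comparisons gave -0.33 to 0.16 (adjusted p = 0.29 to 0.99). Among the differences between lines, GRB2 passed for palbociclib (0.37 for SW620 minus SW48, adjusted p = 0.022), and NF1 and CBL passed in none of the 5 (adjusted p = 0.23 to 0.98 for NF1 and 0.089 to 0.81 for CBL).

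Of 20 genes of the cascade from GRB2 to ERK, 6 were lower and 4 higher with trametinib in SW48 of set 2 (median -0.18), with MAPK3, the kinase ERK1, at 1.42, the adaptor GAB1 at 1.17 and HRAS at -0.63. With palbociclib in SW48 8 were lower and 2 higher (median -0.11), with MAPK3 at 1.46 and ARAF at -0.86, and in SW620 3 were lower and 5 higher (median 0.14), with MAP2K2 at 0.65 and SHC1 at 0.64. With afatinib in BT-474 5 were lower and 3 higher (median 0.02), led by HRAS (-1.02), PTPN11 (-0.85) and KSR1 (0.72), and in SW48 of set 1 NRAS was lower (-0.91) and MAPK3 higher (0.70). Set against the same shares of all genes, these counts of the cascade are near or below the background except for the 8 of 20 lower with palbociclib in SW48 (29.2% of all genes) and the 5 of 19 tested higher in SW620 (17.6% of all genes). The other 5 drug comparisons called none of the 20, nor any of the partners. In these edgeR called 0% of all genes, except in BT-20 with afatinib (0.273% higher and 0.312% lower). The median of all genes tested was -0.0291 to 0.0136 in the 10 drug comparisons.

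The remaining family members, SPRY3 and SPRED3, had too few counts for testing in some drug comparisons. Their counts were higher elsewhere, 29 to 55 for SPRY3 in NCI-N87 controls and 32 to 37 for SPRED3 in MKN-45 controls. SPRY3 had at most 7.47 CPM, in an NCI-N87 control, and SPRED3 at most 10.2 CPM, in SW48 with trametinib of set 1. SPRED3 rose with afatinib in BT-474, where it had 4.30, 3.81 and 4.77 CPM against 2.05, 2.51 and 2.49 CPM in controls (log2 fold change 0.87, SE 0.28, adjusted p = 0.023), the opposite direction to SPRED1 and SPRED2 in the same libraries, from 22 to 29 counts with afatinib and 14 to 18 in controls. SPRY3 had 2.75, 1.85 and 6.51 CPM with trametinib in SW48 of set 1, all above the controls at 1.04, 0.712 and 1.58 CPM (log2 fold change 1.73, SE 0.61, adjusted p = 0.058). In set 2 of SW48 it had 1.02, 0.769 and 0.828 CPM with trametinib against 0.946, 1.21 and 1.35 CPM in controls (adjusted p = 0.36).

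Across the 14 group means of set 2, the 5 genes were compared with 10541 expressed genes by Pearson correlation of log2 CPM. Groups of 1 line share that line, so the values describe these groups and carry no p. SPRY4 was most like EPHA2, a receptor tyrosine kinase (r = 0.912), SPRY2 (0.859) and the integrin gene ITGA6 (0.844). SPRY1 was most like S100A4 (0.969), AGMAT (0.950) and DIMT1 (0.946), SPRY2 like PPM1G (0.951), DYNLL1 (0.946) and HMGA1 (0.943), SPRED1 like PYGL (0.975), ANKS6 (0.968) and SOX8 (0.965), and SPRED2 like TNFRSF10B (0.813), TRIB1 (0.799) and SMG9 (0.797). Among the members themselves r ran from 0.387 for SPRY1 with SPRED2 to 0.872 for SPRY2 with SPRED1.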

How the data were processed

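Libraries of 6 human cancer cell lines were made for 3′ end sequencing with the QuantSeq kit of Lexogen (input 500 ng), per the labels' protocols. The submitters' processing notes name Trimmomatic, STAR, featureCounts and hg38, while the versions, annotation and strand setting used were not given in the sources used here. The 2 deposited tables give whole-number counts for each gene, which the authors had not normalised. Both list 33119 genes. The 12 libraries of the first recur unchanged in the second, where they were ignored. The first table has 5 lines that name no gene, which were left out of depth and tests: 42.4% to 47.5% of the reads of SW48 with trametinib, 22.4% to 38.0% of those of SW48 controls and 0.338% to 5.19% of those of SW620 were listed as not aligned.

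The 54 libraries were grouped by line, drug and table as the labels state. Depth ranged from 3401565 to 12806042 counts. Low counts limit the precision of SPRY2, SPRY4 and SPRY1 in the breast lines. Only the groups of a comparison entered its fit in R 4.3.3 with edgeR 4.0.16: genes were kept by filterByExpr (minimum count 10, minimum total 15), library sizes were normalised with TMM, and the quasi-likelihood test was two-sided, with Benjamini-Hochberg adjustment over all genes tested and a threshold of 0.05. There were 10 drug comparisons, 5 differences of a drug effect between lines and 2 of trametinib with palbociclib. The 6 control groups of set 2 were fitted together for 15 pairs. SE were derived from the test statistic. CPM levels were scaled by TMM over all libraries of a set. Same-numbered libraries did not deviate together (correlations of -0.158 to 0.121), so numbers were not taken to pair them. The fit was also run on simulated data with 200 changed genes. In SW48 with trametinib of set 2 edgeR called 7628 genes, so that run cannot gauge error rates where changes are this frequent.

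The members, the pathway lists and the tests were chosen with earlier results of these data known. Beside the members, the rule names up to 3 called genes per list and drug comparison with the largest change, DUSP6, NF1, GRB2, CBL and ETV5 in every comparison, and the 3 genes most correlated with each member. For differences between lines or drugs, only the members and those 5 genes are given. Some values that the rule names are not reported here. The alternatives tried were DESeq2 1.42.0 in place of edgeR, its size factors within edgeR, all genes with no filter, 1 fit over the whole set, a block for the replicate number, leaving out each library, and CPM without TMM. Promoter sequences are from RefSeq (GRCh38.p14) and matched all 5 members. Python 3.11.15 with matplotlib 3.10.9 drew the figures.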

Additional observations from a re-analysis of the deposited data

Results flagged for a closer look

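These values are tested differences of a drug effect between lines, on the log2 scale (edgeR quasi-likelihood test on the interaction, adjusted over all genes). The trametinib effect of set 2, SW620 minus SW48, differed for SPRY4 (1.93, SE 0.26), SPRY2 (1.11, SE 0.20), SPRED2 (0.82, SE 0.16) and SPRED1 (0.67, SE 0.14). For each of these genes all 3 trametinib libraries of SW48 lay below all 3 controls, while the SW620 groups overlapped. SPRY1 had the same pattern of libraries, but its difference did not pass (0.78, SE 0.34, adjusted p = 0.11). The palbociclib effect, SW620 minus SW48, differed for SPRED2 (0.69, SE 0.21, adjusted p = 0.024), which was lower in 3 of 3 palbociclib libraries of SW48. The afatinib effect, BT-474 minus BT-20, differed for SPRED2 (-0.72, SE 0.18, adjusted p = 0.0087), which was lower in 3 of 3 afatinib libraries of BT-474 and overlapped its controls in BT-20. Of all genes, 28.2% were called in the trametinib test, 25.7% in the palbociclib test and 23.8% in the afatinib test. The 1 of 5 members called for palbociclib, and likewise for afatinib, is near the share of all genes.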

How the results depend on the processing

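The falls of all 5 genes with trametinib in SW48 of set 2, of SPRED2 with palbociclib in SW48, of SPRY4, SPRED1 and SPRED2 with afatinib in BT-474, the 4 called line differences of trametinib and the 4 called differences between the drugs in SW48 kept their direction and call under every alternative run. The size factors of DESeq2 changed no drug call. The number of members called with trametinib in SW48 of set 1, 2 in the text, was 1 with no filter on low counts, 1 with DESeq2, 0 with all groups in 1 fit and 0 to 1 with a library left out. With palbociclib in SW48 it was 3, but 1 with DESeq2, 1 in 1 fit and 1 to 4 with a library left out, and in SW620 it was 1, but 0 with DESeq2, 0 in 1 fit and 0 to 1 with a library left out. With no filter it was 1 for BT-20, and with a library left out 0 to 1 for NCI-N87. In 1 fit of all groups the SPRED2 differences missed the threshold for palbociclib between the colorectal lines (0.64, adjusted p = 0.052) and for afatinib between the breast lines (-0.70, adjusted p = 0.076). The causes were not tested. CPM of the library total moved 6 of 30 untreated means by more than their SD.

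Same-numbered libraries share only a number. With the replicate number as a block, 1 member was called for SW48 of set 1 and no other count of members changed. Under that block values near 0 changed sign for SPRY4 in SW48 (0.14) and SW620 (-0.32) with trametinib of set 1 and for SPRY1 in SW620 with trametinib of set 2 (0.0047).

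The remaining changes of sign came from leaving out a library, and none concerns a called value. Their log2 ranges were as follows. With trametinib in set 1 they were -0.67 to 0.90 for SPRY4 in SW48, and in SW620 -1.05 to 0.38 for SPRY4, -0.044 to 0.43 for SPRY2 and -0.29 to 0.47 for SPRED2. In SW620 with trametinib of set 2 they were -0.26 to 0.29 for SPRY1, -0.12 to 0.16 for SPRY2, -0.022 to 0.12 for SPRY4 and -0.068 to 0.039 for SPRED1. With palbociclib they were -0.042 to 0.073 for SPRY2 in SW48, and in SW620 -0.14 to 0.14 for SPRY2, -0.089 to 0.0043 for SPRED1 and -0.12 to 0.17 for SPRED2. With afatinib they were -0.37 to 0.26 for SPRY4, -0.14 to 0.022 for SPRED1 and -0.23 to 0.015 for SPRED2 in NCI-N87, -0.098 to 0.031 for SPRY1 and -0.00089 to 0.45 for SPRED2 in MKN-45, and -0.086 to 0.032 for SPRED2 in BT-20. For differences between lines they were -0.89 to 0.68 for SPRY4 with trametinib of set 1, -0.41 to 0.12 for SPRY1, -0.15 to 0.13 for SPRY2 and -0.092 to 0.28 for SPRY4 with palbociclib, -0.55 to 0.076 for SPRY4 and -0.081 to 0.085 for SPRED1 with afatinib in the stomach lines, and -1.21 to 0.0083 for SPRY2 in the breast lines. For trametinib minus palbociclib in SW620 they were -0.065 to 0.10 for SPRY2, -0.0062 to 0.072 for SPRED1 and -0.24 to 0.041 for SPRED2. Between untreated lines they were -0.11 to 0.48 for SPRY1 (SW620 minus NCI-N87), -0.073 to 0.21 for SPRY4 (MKN-45 minus SW48), and for SPRED2 -0.035 to 0.17 (SW620 minus BT-474) and -0.23 to 0.22 (BT-20 minus MKN-45).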
